A study of Mus musculus with 30 samples.

Results

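Complex I (NADH:ubiquinone oxidoreductase) is the largest enzyme of the mitochondrial respiratory chain. Its peripheral arm takes electrons from NADH and hands them along iron-sulphur clusters to ubiquinone, and its membrane arm pumps protons. Core subunits carry out this chemistry, accessory subunits surround and stabilise them, and assembly factors help to build the enzyme without remaining in it. Skeletal muscle holds many mitochondria, and expression of respiratory chain genes is often followed in muscle during diet-induced insulin resistance.

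The complex I genes were rows of the expression table whose symbol starts with Ndufa, Ndufb, Ndufc, Ndufs, Ndufv or Ndufaf and that the platform annotation also names. There were 42 such genes among 16475 genes tested, of which 34 carry subunit names and 8 are Ndufaf assembly factors. By role, 5 were core subunits, 9 were accessory subunits of the peripheral arm and 18 were accessory subunits of the membrane arm. The other 2 subunit-named genes, Ndufa4 and Ndufa4l2, were kept out of these roles, since Ndufa4 was first assigned to complex I and later found in cytochrome c oxidase. Counts and medians over the 34 subunit genes still include both, and those over the 33 subunit genes above an intensity of 20 include Ndufa4. Ndufs3, Ndufab1, Ndufb1, Ndufb4 and the mitochondrially encoded subunits were not analysed here.

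RNA came from the quadriceps of male C57BL/6J mice, whose strain the labels spell C56BL/6J, with 1 array for each of 30 mice. The HF d56 group ate a high fat diet for 56 days and was 20 weeks old, the LF d56 group ate the low fat diet for the same 56 days and was also 20 weeks old, and the LF d0 group was killed at day 0 at 12 weeks of age, with 10 mice in each. All 3 groups had been switched at 9 weeks of age to a 3-week run-in on the low fat diet, and mice that went on were assigned to the diets at random. The study asked how the obesity and insulin resistance brought on by the high fat diet affect the muscle transcriptome, so HF d56 against LF d56 is the diet comparison at equal age, while both comparisons with LF d0 carry 8 weeks of age and feeding as well.

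Values are the log2 of the authors' GCRMA intensities, a background-corrected probe brightness summarised to 1 value per gene. Between 6334 and 6563 genes per array exceeded an intensity of 20, and 41 of the 42 complex I genes did so on at least 5 arrays. The exception was Ndufa4l2, whose mean log2 intensity was 3.50 in HF d56, 3.39 in LF d56 and 3.52 in LF d0. All 8 fast fibre markers exceeded 20 on all 30 arrays, and all 4 heart muscle markers did so on none. Slow fibre markers varied widely between mice. The mean level of the 7 measured, of 8 listed, ran from 4.15 to 8.97 in HF d56, from 4.32 to 9.67 in LF d56 and from 4.65 to 9.12 in LF d0. The neutrophil gene S100a8 exceeded 100 on 6 HF d56, 4 LF d56 and 7 LF d0 arrays. The spike-in control RNAs split the arrays at their widest gap into a set of 9 with high and a set of 21 with low 5′ relative to 3′ signal, with 3 and 7 arrays of every group. In RNA of whole muscle, fewer cells of a type and less RNA per cell cannot be told apart.

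No complex I gene differed past the test between the diets. Against LF d56 mice of equal age, 0 of 34 subunit genes and 0 of 8 assembly factors passed limma at an adjusted p below 0.05, where 0.0243% of all genes tested did so. The ranges of the groups overlapped for all 42, and did not for 0.0121% of all genes. At an unadjusted p below 0.05 the complex I genes held 2, the assembly factor Ndufaf6 and the subunit Ndufs4, or 4.76%, beside 5.1% of all genes tested. The median log2 difference of the subunits was -0.01, against -0.01 over the 6844 genes above an intensity of 20. Of the subunits 15 were higher, Ndufa4 and Ndufa4l2 among them, and 19 were lower. For the 33 subunit genes above 20, the 95% intervals of the difference lay between -0.22 and 0.21 on the log2 scale. That range runs from 0.859 to 1.15 times the level in LF d56 muscle, so larger shifts of a single subunit lay outside every interval.

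**Figure D1:**
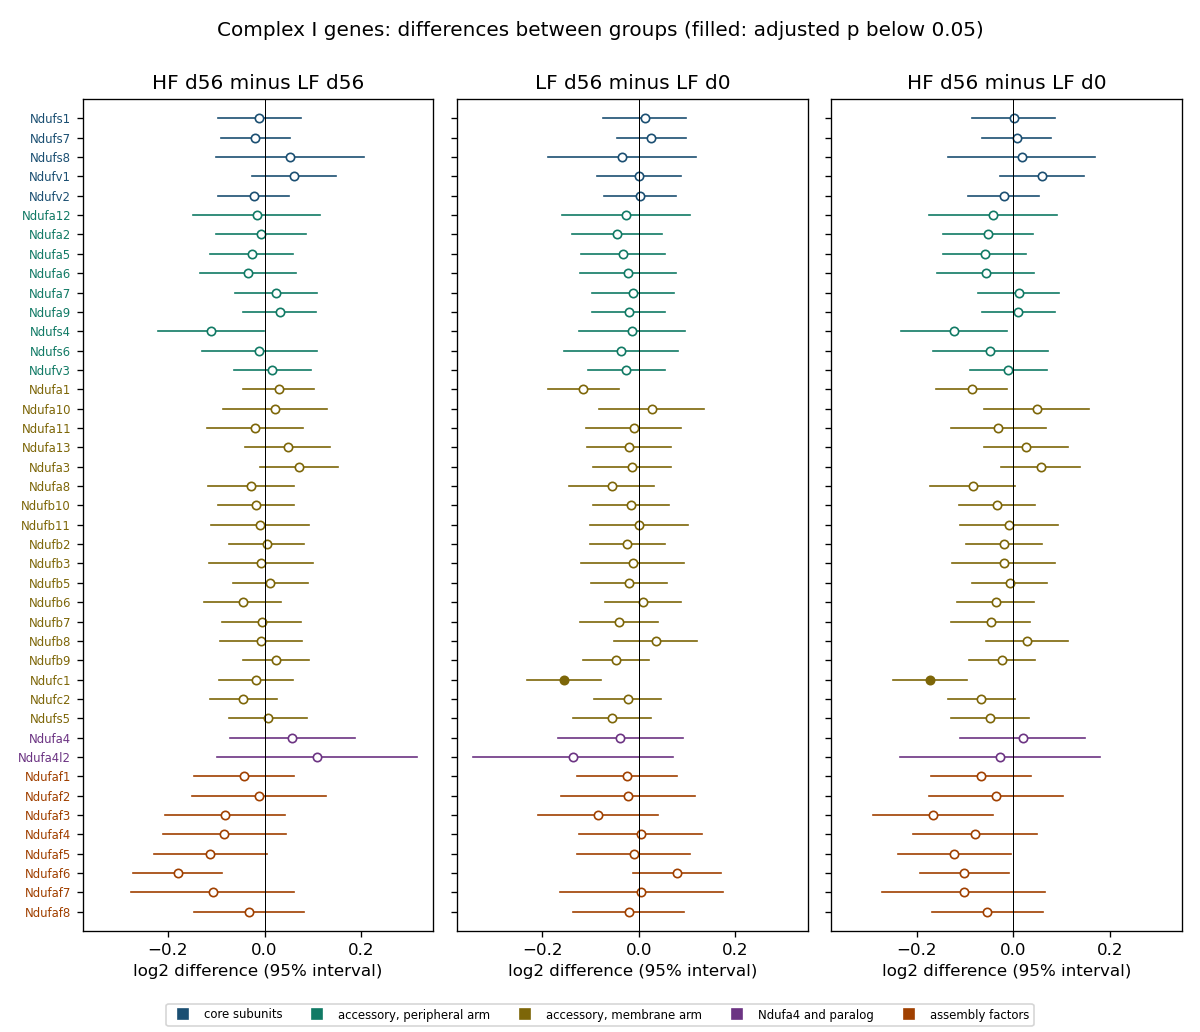
Log2 difference of each complex I gene in the 3 comparisons (points) with its 95% interval from limma (bars, n = 10 mice per group), coloured by role; filled points passed an adjusted p of 0.05. Only Ndufc1 is filled, at -0.16 in LF d56 minus LF d0 and -0.17 in HF d56 minus LF d0, and no gene is filled in HF d56 minus LF d56.

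The 5 core subunits analysed were near 0 in the diet comparison, with a median difference of -0.01 and values from -0.02 to 0.06. Ndufv1, which binds the flavin that accepts electrons from NADH, averaged 11.51 ± 0.08 in HF d56, 11.45 ± 0.08 in LF d56 and 11.45 ± 0.08 in LF d0 (SD, n = 10 each). Its partner Ndufv2, which carries an iron-sulphur cluster beside the flavin, averaged 12.37 ± 0.07 in HF d56, 12.39 ± 0.05 in LF d56 and 12.39 ± 0.06 in LF d0. The groups overlapped for both genes, and their differences of 0.06 and -0.02 between the diets did not pass (adjusted p = 0.998 for both). Ndufs1, the core subunit that holds several of the clusters, averaged 11.80 ± 0.09 in HF d56, 11.81 ± 0.05 in LF d56 and 11.80 ± 0.09 in LF d0. Ndufs7, which lies at the site where ubiquinone binds, averaged 12.11 ± 0.07 in HF d56, 12.13 ± 0.04 in LF d56 and 12.10 ± 0.05 in LF d0. Ndufs8, which carries clusters on the way to ubiquinone, was the most variable of the core genes, at 11.99 ± 0.17 in HF d56, 11.94 ± 0.19 in LF d56 and 11.97 ± 0.14 in LF d0. For these core genes the means of the groups therefore lay closer together than the mice within a group.

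The 9 accessory subunits of the peripheral arm had a median difference of -0.01 between HF d56 and LF d56, with 3 higher and 6 lower. Ndufs4, whose loss in mice causes a Leigh-like brain disease, was the lowest of them. Its log2 intensity was 10.57, 10.68 and 10.91 (lowest, median and highest mouse) in HF d56, against 10.63, 10.80 and 11.03 in LF d56 and 10.72, 10.79 and 11.08 in LF d0. HF d56 mice overlapped both other groups, with 8 of 10 below the mean of either. The difference was -0.11 ± 0.05 (SE) from LF d56 (adjusted p = 0.974) and -0.12 ± 0.05 from LF d0 (adjusted p = 0.364), and neither passed. Ndufa12, the accessory subunit that takes the place held during assembly by Ndufaf2, reached 13.47, 13.81 and 13.97 in HF d56, 13.61, 13.79 and 13.93 in LF d56, and 13.60, 13.82 and 14.05 in LF d0. Its groups overlapped almost wholly, with a diet difference of -0.02. The other 7 differed between the diets by between -0.03 (Ndufa6, a LYR-motif protein that binds the mitochondrial acyl carrier protein) and 0.03 (Ndufa9, a member of the short-chain dehydrogenase family).

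The 18 accessory subunits of the membrane arm had a median diet difference of -0.00619 and ranged from -0.05 (Ndufb6) to 0.07 (Ndufa3), with 8 higher and 10 lower. Ndufa3, a small single-pass membrane subunit, reached 12.94, 12.99 and 13.25 in HF d56, 12.87, 12.95 and 13.08 in LF d56, and 12.93, 12.97 and 13.06 in LF d0. Its difference of 0.07 ± 0.04 from LF d56 did not pass (adjusted p = 0.996), although 8 of 10 HF d56 mice lay above the LF d56 mean. Ndufa13, also called GRIM-19 and studied in cell death as well, reached 12.56, 12.68 and 12.82 in HF d56, 12.51, 12.65 and 12.75 in LF d56, and 12.53, 12.67 and 12.83 in LF d0. Ndufb9, another LYR-motif subunit, reached 12.76, 12.83 and 12.95 in HF d56, 12.75, 12.83 and 12.88 in LF d56, and 12.83, 12.87 and 12.91 in LF d0. Both genes overlapped in all 3 groups. Ndufa4 averaged 12.47 ± 0.13 in HF d56, 12.41 ± 0.14 in LF d56 and 12.45 ± 0.14 in LF d0. Its paralog Ndufa4l2, known as a gene induced by low oxygen, reached 3.04, 3.58 and 3.75 in HF d56, 3.07, 3.36 and 3.72 in LF d56, and 2.96, 3.52 and 3.91 in LF d0. An intensity this low is close to background, where these arrays limit what can be seen.

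**Figure D2:**
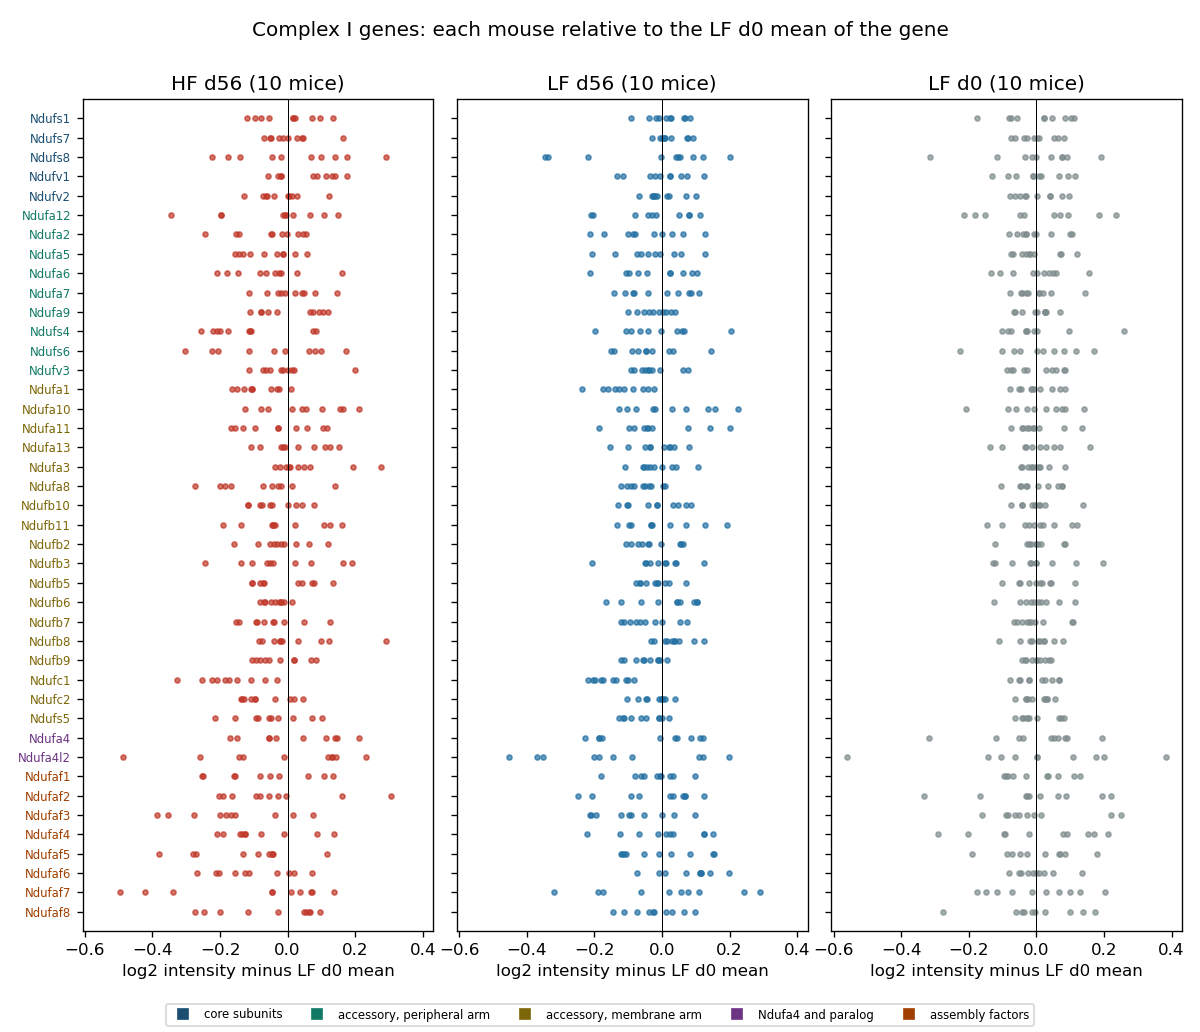
Log2 intensity of every complex I gene in every mouse, as the distance from that gene's LF d0 mean (1 point per mouse, 10 mice per panel), with genes coloured by role. Points of most genes spread to both sides of 0 in all panels, while all 10 mice of HF d56 and of LF d56 lie below 0 for Ndufc1.

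Ndufc1 was the only complex I gene to pass in any comparison. It encodes a small accessory subunit of the membrane arm with a single transmembrane helix, at the gene listed on mouse chromosome 3. The 250 bases before its annotated start (RefSeq, GRCm38.p6, chr3:51408956-51409205, minus strand) are shown because it is the one complex I gene that passed. Neither motif named further on, nor its looser form, was found in its window on either strand, so the stretch has no capitals.
Ndufc1: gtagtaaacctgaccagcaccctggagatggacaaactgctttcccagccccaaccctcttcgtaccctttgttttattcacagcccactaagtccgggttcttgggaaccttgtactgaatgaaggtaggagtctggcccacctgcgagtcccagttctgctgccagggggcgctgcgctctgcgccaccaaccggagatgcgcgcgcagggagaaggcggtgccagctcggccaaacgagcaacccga

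Ndufc1 had a log2 intensity of 11.64, 11.79 and 11.94 (lowest, median and highest mouse) in HF d56, against 11.75, 11.81 and 11.88 in LF d56 and 11.89, 11.96 and 12.03 in LF d0. The LF d56 and LF d0 mice did not overlap, while HF d56 mice overlapped both. Across all genes, 0.121% had no overlap between LF d56 and LF d0, and Ndufc1 was the only complex I gene among them. Ndufc1 fell by 0.16 ± 0.04 (SE) on the log2 scale in LF d56 relative to LF d0 (95% interval -0.23 to -0.08, limma adjusted p = 0.0379), with 10 of 10 mice below the LF d0 mean. It fell by 0.17 ± 0.04 in HF d56 relative to LF d0 (95% interval -0.25 to -0.10, adjusted p = 0.00976), again in 10 of 10 mice. The 2 comparisons share the LF d0 mice, so they are not separate evidence. Between the diets Ndufc1 differed by -0.02 ± 0.04 (95% interval -0.09 to 0.06, adjusted p = 0.998).

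Whether the fall of Ndufc1 passed depended on the arrays, the scaling and the covariates used. The difference from LF d0 ran from -0.19 to -0.09 over the alternatives, both in LF d56 and in HF d56. With each array centred on its median, the difference from LF d0 was -0.16 in HF d56 (adjusted p = 0.0257) and -0.14 in LF d56 (adjusted p = 0.103). In LF d56 the difference passed in 7 of 20 fits that each left out 1 mouse (adjusted p from 0.0331 to 0.0748), and in HF d56 in 20 of 20. Without the 17 arrays on which S100a8 exceeded 100, which left 4 HF d56, 6 LF d56 and 3 LF d0 mice, the difference was -0.09 in LF d56 (adjusted p = 0.614) and -0.09 in HF d56 (adjusted p = 0.819). The 3 LF d0 mice kept then had values from 11.89 to 11.92, and the 7 left out had values from 11.94 to 12.03. The order was the other way in the d56 groups. There the mice kept averaged 11.81 in HF d56 and 11.82 in LF d56, and those left out 11.78 and 11.81. Mean levels of the 8 neutrophil markers ran from 2.19 to 9.69 in HF d56, from 2.20 to 6.64 in LF d56 and from 2.28 to 9.00 in LF d0. With these markers as a covariate, the LF d56 difference from LF d0 was -0.15 (adjusted p = 0.0942) and that of HF d56 was -0.17 (adjusted p = 0.0138). With the slow fibre markers as a covariate, both differences still passed, at -0.16 in LF d56 (adjusted p = 0.043) and -0.17 in HF d56 (adjusted p = 0.0113). Mean levels of the 4 tendon markers, all above 20 on every array, ran from 8.22 to 8.92 in HF d56, from 8.47 to 8.72 in LF d56 and from 8.76 to 9.45 in LF d0. With tendon markers as a covariate the difference from LF d0 was -0.19 in HF d56 (adjusted p = 0.236) and -0.17 in LF d56 (adjusted p = 0.476). Neither difference was smaller than without this covariate. The tendon marker levels of LF d56 and LF d0 did not overlap, so this fit can hardly part the markers from the groups. The 3 cartilage and bone markers measured, of which Acan exceeded 20 on no array, ran from 1.98 to 3.52 in HF d56, from 1.94 to 2.89 in LF d56 and from 2.04 to 5.46 in LF d0, and with them as a covariate the difference was -0.15 in HF d56 (adjusted p = 0.10) and -0.12 in LF d56 (adjusted p = 0.426). The adipocyte markers had mean levels of 7.34 in HF d56, 6.78 in LF d56 and 6.22 in LF d0, although Cfd among them was lowest in HF d56. With the adipocyte markers as a covariate, the difference was -0.14 in HF d56 (adjusted p = 0.322) and -0.14 in LF d56 (adjusted p = 0.147). The 4 endothelial markers averaged 5.78 in HF d56, 5.65 in LF d56 and 6.05 in LF d0, and with them as a covariate it was -0.17 in HF d56 (adjusted p = 0.0349) and -0.15 in LF d56 (adjusted p = 0.0946). Within the low spike-in set Ndufc1 averaged 11.78 in HF d56, 11.83 in LF d56 and 11.96 in LF d0 (n = 7 each), and within the high set 11.83 in HF d56, 11.78 in LF d56 and 11.97 in LF d0 (n = 3 each). The direction was thus the same in both sets, where with fewer mice neither difference passed.

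**Figure D3:**
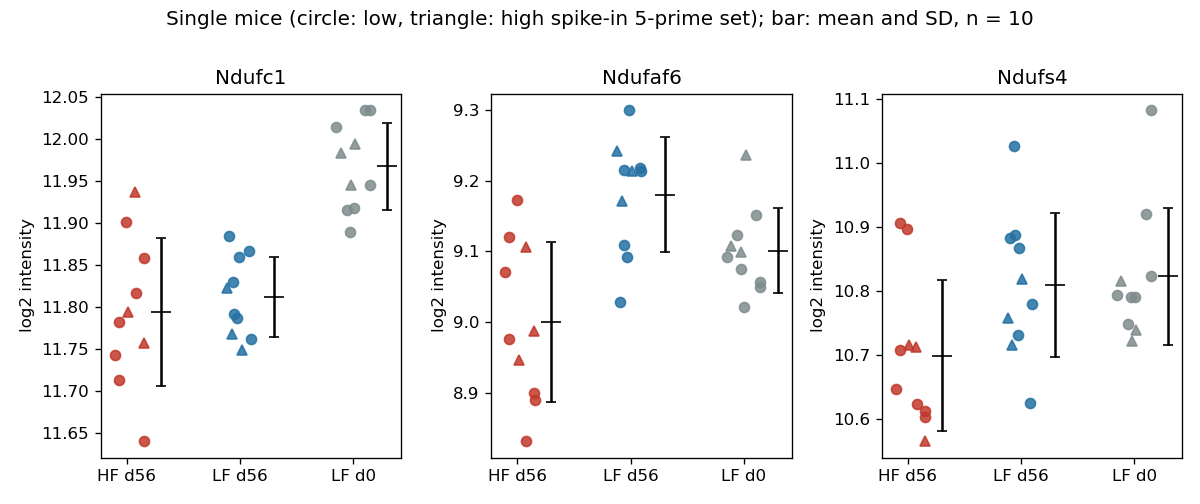
Log2 intensity of Ndufc1, Ndufaf6 and Ndufs4 in single mice of the 3 groups (circles, low spike-in set; triangles, high set) with mean and SD (bars, n = 10). Ndufc1 is at most 11.88 in LF d56 and at least 11.89 in LF d0, while for Ndufaf6 and Ndufs4 the groups overlap.

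Over 8 weeks on the low fat diet, Ndufc1 was the 1 complex I gene of 42 that passed, where 0.85% of all genes did so in either direction, 0.625% lower and 0.225% higher. At an unadjusted p below 0.05 there were 2 complex I genes, or 4.76%. This lay beside 10.1% of all genes tested and 13.9% of those above an intensity of 20. The subunits had a median difference of -0.02 between LF d56 and LF d0, with 7 higher and 27 lower, beside 0.00592 over all genes above 20, of which 47.9% were lower. All 9 peripheral accessory subunits and 14 of 18 membrane accessory subunits were on the lower side, while of the 5 core subunits 3 were higher and 2 lower, at a median of 0.00237. These sides depend on the scaling: with each array centred on its median the subunits had 12 higher and 22 lower at a median of -0.00809, with 7 of 9 peripheral and 12 of 18 membrane accessory subunits lower, while the median of all genes was 0.01. With quantile normalization 29 of 34 subunits were lower, and the core median was -0.000965. Except for Ndufc1, none of these differences passed. The next gene by p was Ndufa1, an X-linked membrane subunit needed early in the assembly of the membrane arm. Its values were 12.48, 12.53 and 12.65 in HF d56 and 12.40, 12.52 and 12.62 in LF d56, against 12.56, 12.63 and 12.72 in LF d0. All 10 LF d56 mice lay below the LF d0 mean although the ranges overlapped. The difference of -0.12 ± 0.04 (95% interval -0.19 to -0.04) had an adjusted p of 0.154, which became 0.0327 with an intensity trend in limma and 0.0249 with a pseudocount of 16. Ndufs5, a cysteine-rich subunit on the intermembrane side, reached 11.80, 11.96 and 12.11 in HF d56 and 11.88, 11.96 and 12.03 in LF d56, against 11.95, 11.99 and 12.09 in LF d0. Its difference of -0.06 did not pass (adjusted p = 0.686), nor did that of -0.05 for Ndufb9 (adjusted p = 0.688).

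Against LF d0, HF d56 mice also had 1 complex I gene past the test, Ndufc1, where 1.59% of all genes passed, 0.807% lower and 0.783% higher. The groups overlapped for all 42 complex I genes, and 0.194% of all genes had no overlap. At an unadjusted p below 0.05 there were 6, namely 3 subunits and 3 assembly factors. These are 14.3%, beside 11.0% of all genes tested and 15.9% of those above an intensity of 20. The subunits had a median of -0.02, with 11 higher and 23 lower, and 52.6% of all genes above 20 were lower. With median centring 21 of 34 were lower, and with quantile normalization 26 of 34. The core subunits were at 0.00696 (-0.00127 with quantile normalization), the peripheral accessory subunits at -0.05 and the membrane accessory subunits at -0.03. Ndufa1 differed by -0.09 ± 0.04 (adjusted p = 0.332), with 9 of 10 HF d56 mice below the LF d0 mean. The intervals of the 33 subunits above 20 lay between -0.25 and 0.17 in this comparison, and between -0.23 and 0.14 in LF d56 against LF d0.

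All 8 Ndufaf assembly factors had a lower mean in HF d56 than in LF d56, with a median difference of -0.08 and values from -0.18 to -0.01, although none passed. Over all genes above 20 the median was -0.01 and 55.0% were lower. Against LF d0, all 8 were again lower in HF d56, with a median of -0.09. These 2 comparisons share the HF d56 mice, and LF d56 against LF d0 gave a median of -0.02, with 3 higher and 5 lower. Within the low spike-in set 6 of 8 were lower in HF d56 than in LF d56, and within the high set 8 of 8, with a median of -0.09 in both. Without the arrays high in S100a8, 7 of 8 were lower, with a median of -0.11. Mean levels of the 5 adipocyte markers measured, of 6 listed, ran from 5.96 to 8.68 in HF d56, from 6.42 to 7.48 in LF d56 and from 5.83 to 7.01 in LF d0, with means of 7.34, 6.78 and 6.22 in those groups. Lep, Adipoq, Cidec and Retn had group means in this order, although Lep exceeded 20 on only 6 arrays. Cfd went the other way, at 9.19 in HF d56, 9.66 in LF d56 and 9.64 in LF d0. HF d56 replicates 4 and 10 had the lowest assembly factor means, 7.94 and 7.97, and adipocyte marker levels of 7.84 and 8.23. HF d56 replicate 9 had the highest adipocyte marker level of all mice, 8.68, and an assembly factor mean of 8.14. HF d56 replicate 8 had the highest assembly factor mean of its group, 8.25, at an adipocyte marker level of 7.44. A link between these measures over the mice was not tested. With these markers as a covariate, the median of the assembly factors was -0.06 in HF d56 against LF d56 and -0.04 in HF d56 against LF d0, with 7 of 8 lower in both. The intervals of the 8 genes lay between -0.28 and 0.13, or 0.826 to 1.09 times the LF d56 level.

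Ndufaf6, which in human cells acts early in assembly, had the smallest p of all complex I genes in the diet comparison. Its log2 intensity was 8.83, 8.98 and 9.17 in HF d56, against 9.03, 9.21 and 9.30 in LF d56 and 9.02, 9.10 and 9.24 in LF d0. All 10 HF d56 mice lay below the LF d56 mean, but the ranges overlapped. The difference of -0.18 ± 0.04 (95% interval -0.27 to -0.09, unadjusted p = 0.000354) did not pass over all genes (adjusted p = 0.224). It was -0.17 within the low spike-in set and -0.20 within the high set. Against LF d0 the difference was -0.10 ± 0.04 (adjusted p = 0.377), and LF d56 lay 0.08 ± 0.04 above LF d0 (adjusted p = 0.577).

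Ndufaf5, which in human cells hydroxylates an arginine of the core subunit NDUFS7, reached 7.44, 7.75 and 7.94 in HF d56, 7.70, 7.79 and 7.98 in LF d56, and 7.63, 7.82 and 8.00 in LF d0. Of 10 HF d56 mice, 9 lay below the LF d56 mean, with a difference of -0.11 ± 0.06 (adjusted p = 0.991). Its partner Ndufaf8, which stabilises Ndufaf5 in human cells, differed by -0.03 between the diets (adjusted p = 0.998). Ndufaf3 works with Ndufaf4 on the part of the enzyme that binds ubiquinone. Ndufaf3 reached 6.64, 6.86 and 7.11 in HF d56, 6.82, 6.94 and 7.13 in LF d56, and 6.87, 6.99 and 7.28 in LF d0, and Ndufaf4 averaged 9.12 ± 0.12 in HF d56, 9.20 ± 0.12 in LF d56 and 9.20 ± 0.17 in LF d0. Ndufaf3 differed by -0.08 between the diets and by -0.17 ± 0.06 between HF d56 and LF d0 (adjusted p = 0.219), and Ndufaf4 by -0.08 between the diets. Ndufaf7, an arginine methyltransferase of the mitochondria, differed by -0.11 between the diets with the widest interval of the 8. Ndufaf1, a member of the intermediate assembly complex of the membrane arm, and Ndufaf2, the paralog of Ndufa12, differed by -0.04 and -0.01. None of the differences given for these 7 genes passed the test.

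**Figure D4:**
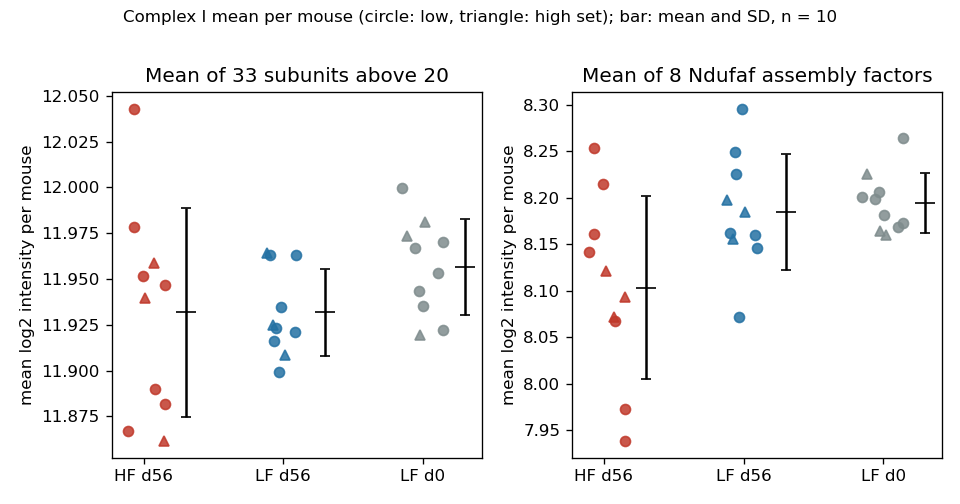
Mean log2 intensity per mouse of the 33 subunit genes above 20 (left) and of the 8 assembly factors (right) in the 3 groups (circles, low spike-in set; triangles, high set) with mean and SD (bars, n = 10). The HF d56 mice spread from 11.86 to 12.04 for subunits and from 7.94 to 8.25 for assembly factors, and overlap both other groups.

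The SD within groups had a median of 0.0780 over the 33 subunits above 20 (range 0.0502 to 0.168) and 0.127 over the assembly factors (0.0875 to 0.188), beside 0.190 over all 6844 genes above 20. For other complexes the median was 0.104 over 4 genes of complex II, 0.0986 over 7 of complex III and 0.0756 over 11 of complex IV. It was 0.112 over 11 genes of complex V, and 0.0986 over the 33 genes of complexes II to V. The genes above 20 were not matched to the subunits in intensity. The mean of the 33 subunits per mouse was 11.93 ± 0.0570 in HF d56, 11.93 ± 0.0237 in LF d56 and 11.96 ± 0.0263 in LF d0 (SD, n = 10 each). The mean of the assembly factors was 8.10 ± 0.0982 in HF d56, 8.19 ± 0.0621 in LF d56 and 8.19 ± 0.0324 in LF d0. The SD was thus highest in HF d56 for both, a difference in spread that was not tested. HF d56 replicate 2 gave the highest subunit mean of all mice, at 12.04, and was the highest of its group for 15 of the 33 genes. HF d56 replicate 5 gave the lowest, at 11.86, and was the lowest of its group for 11.

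The arrays were also compared by spike-in signal. Between the high and the low set 10 of 42 complex I genes passed, or 23.8%, a share near the 23.1% of all genes that did. The share was larger among the 6844 genes above an intensity of 20, where 1214 passed as higher and 1513 as lower. Ndufa12 was lower in the high set (difference -0.25, adjusted p = 3.84e-06). Ndufaf4 (-0.19), Ndufaf8 (-0.14), Ndufa13 (-0.12), Ndufa5 (-0.10) and Ndufa1 (-0.08) were lower there too. Ndufa4l2 (0.22), Ndufa4 (0.14), Ndufb11 (0.14) and Ndufa11 (0.12) were higher. Since each group held 3 high and 7 low arrays, the split is balanced over the groups, and with it as a block the diet comparison again called 0 complex I genes. Ndufc1 did not differ between the sets by the test (0.00, adjusted p = 0.95).

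**Figure D5:**
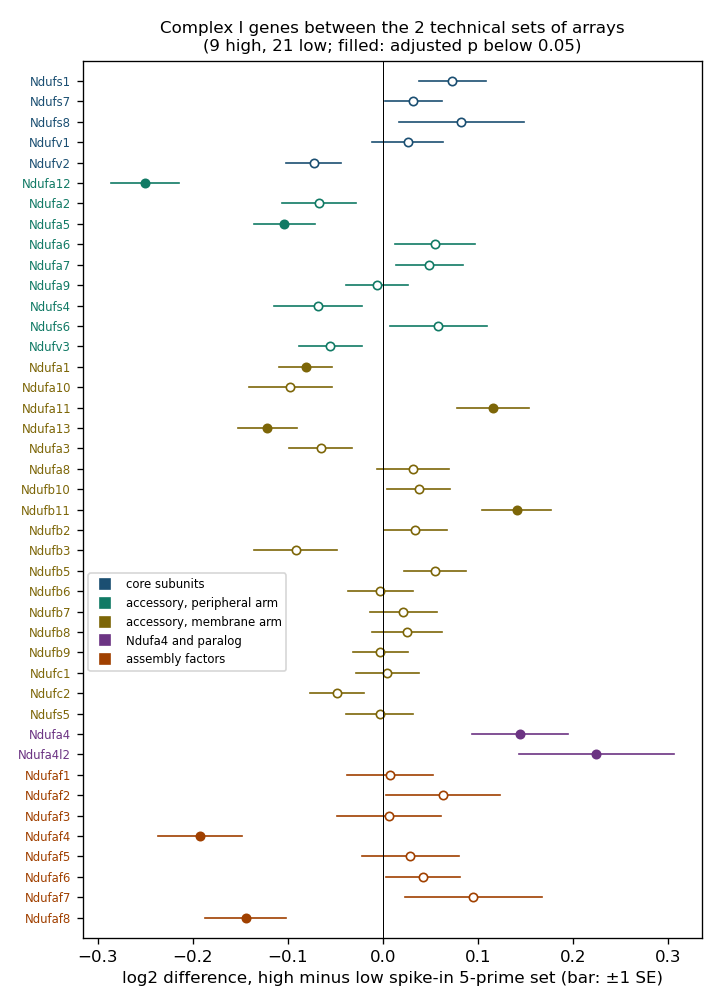
Log2 difference of each complex I gene between the 9 arrays with high and the 21 arrays with low 5′ relative to 3′ spike-in signal (points, bars ± 1 SE), coloured by role; filled points passed an adjusted p of 0.05. Of 42 genes 10 are filled, from -0.25 for Ndufa12 to 0.22 for Ndufa4l2.

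Genes of the other respiratory complexes did not pass in the main fit either. Of 33 measured subunits of complexes II to V, 0 passed in any of the 3 comparisons, with medians of 0.01 in HF d56 against LF d56, 0.00613 in LF d56 against LF d0 and 0.00772 in HF d56 against LF d0. The lowest of them by p over time was Cox7a1, a muscle form of a cytochrome c oxidase subunit, at -0.12 in LF d56 against LF d0 (adjusted p = 0.189). Of 11 further complex I assembly factors listed under other symbols, 8 were measured and 0 passed. Their diet median was -0.04, with 3 higher and 5 lower in HF d56 than in LF d56. Acad9, which works in one assembly complex with Ndufaf1, had the smallest p among these 8, at -0.23 ± 0.08 between the diets (adjusted p = 0.733). Of 8 measured regulators and markers of mitochondrial biogenesis, 0 passed. Citrate synthase, Cs, often used as a measure of mitochondrial content, differed by -0.00 ± 0.04 between the diets and by 0.04 ± 0.04 between HF d56 and LF d0 (adjusted p = 0.815). The coactivator Ppargc1a differed by -0.23 ± 0.17 between the diets (adjusted p = 0.998), and Tfb1m, a methyltransferase of mitochondrial ribosomal RNA, by -0.23 ± 0.09 (adjusted p = 0.823).

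Promoter sequence was examined because complex I genes are textbook targets of nuclear respiratory factor 1 (NRF1) and of the oestrogen-related receptor ERR alpha. A window of 250 bases before to 50 after the annotated start was found in the RefSeq promoter table (GRCm38.p6) for 37 of the 42 genes, and both strands were searched. The NRF1 motif, the 10 letters in capitals in the stretches shown with this paragraph, reads the same on both strands and was in 3 of 37 (8.11%), beside 0.971% of all 32851 promoters and 1.77% of those of genes on the array. The 3 were Ndufa11, Ndufaf4 and Ndufaf5, and the stretch around the motif is shown for Ndufaf4 (chr4:24897930-24898019, plus strand) and Ndufa11 (chr17:56717662-56717751, plus strand), where it lies before the start, with the motif in capitals.
Ndufaf4: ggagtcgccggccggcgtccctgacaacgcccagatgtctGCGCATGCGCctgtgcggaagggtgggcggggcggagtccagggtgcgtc
Ndufa11: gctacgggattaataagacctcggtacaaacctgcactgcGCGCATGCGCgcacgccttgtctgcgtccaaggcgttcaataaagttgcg

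The looser NRF1 form, with any base at the 2 middle positions, includes the strict one and was in 9 of 37 (24.3%), beside 6.23% of all promoters and 11.8% of those of array genes. The ERR alpha motif TCAAGGTCA was in 0 of 37, beside 0.423% of all promoters, and its looser form AAGGTCA was in 2 (5.41%), Ndufb2 and Ndufs5, beside 4.72%. These are matches of letters in a fixed window and not measured sites. Neither Ndufa11, Ndufaf4 nor Ndufaf5 passed in any group comparison, with diet differences of -0.02, -0.08 and -0.11.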

How the data were processed

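Quadriceps RNA of 30 mice was measured on Affymetrix arrays. The authors deposited 1 linear intensity per gene and array, made with GCRMA per the submitters' processing notes, which give no version. By default GCRMA corrects background by probe sequence and sets all arrays to a common distribution, so a shift of most genes at once would not show. Of 16539 rows, 64 control rows were left out. Gene symbols came from the gene number in each row, and 218 rows stayed unnamed. A row that the platform annotation does not name is not reported here.

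The log2 of each deposited intensity (pseudocount 0) entered a single linear model over the 3 groups and all arrays (limma 3.58.1 under R 4.3.3, eBayes without trend, 27 residual degrees of freedom plus 3.97 from the prior). Tests were two-sided, with p-values adjusted by Benjamini-Hochberg over 16475 rows, at a threshold of 0.05. SE and 95% intervals are those of the fit. The number of arrays and signal over background limit the precision. The procedure was tested on simulated data with planted differences larger than that of any complex I gene. That test does not show whether differences as small as those reported here would pass.

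The complex I genes and companion lists were chosen with earlier results of these data known. Single-mouse ranges are given for genes that passed, the 4 of smallest p per comparison, the 4 of highest level and those under an intensity of 20. Alternatives were other normalizations, filters, pseudocounts, variance settings, covariates, array subsets and each mouse left out. The cartilage and bone, tendon, adipocyte and endothelial covariates were chosen after seeing the data. Same-numbered arrays of different groups did not deviate together (correlation over 0.1 in 3, 2 and 4 of 10 pairs), and no pairing was used because the labels number every mouse separately. Groups came from the labels.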

Additional observations from a re-analysis of the deposited data

Results flagged for a closer look

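Within groups of 10 mice, 5 of 126 combinations of gene and group (3.97%) had 1 mouse set apart from the rest by Dixon's test, where chance flags about 1 in 20. The size given is the gap to the nearest mouse as a share of the group's range. Ndufv3 was highest in HF d56 replicate 2 (0.572), at 12.38 against 12.20 for the next mouse, and Ndufs7 was highest in the same mouse (0.507), at 12.27 against 12.15. Ndufb3 was lowest in LF d56 replicate 2 (0.476), at 9.96 against 10.12. Ndufb10 was highest in LF d0 replicate 3 (0.535), at 12.81 against 12.70. Ndufaf8 was lowest in LF d0 replicate 6 (0.480), at 8.55 against 8.76.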

How the results depend on the processing

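In HF d56 against LF d56 the count of complex I genes past the threshold was 0 in all 40 alternatives run. Medians close to 0 changed sign: the subunits ran from -0.0183 to 0.0137 in HF d56 against LF d56 and from -0.0306 to 0.00834 in LF d56 against LF d0, and the assembly factors from -0.0440 to 0.0342 in LF d56 against LF d0. The assembly factor median stayed below 0 in HF d56 against LF d56 (-0.114 to -0.0625) and against LF d0 (-0.112 to -0.0412). In LF d56 against LF d0 the count of 1 became 2 with an intensity trend and with a pseudocount of 16, which add Ndufa1. It became 0 with median centring (Ndufc1 -0.14, adjusted p = 0.103), with a replicate block (-0.16, adjusted p = 0.0977), within the low (-0.14, adjusted p = 0.332) or the high spike-in set (-0.19, adjusted p = 0.559), with the neutrophil, tendon, cartilage and bone, adipocyte or endothelial covariate, and without the arrays high in S100a8. It ranged from 0 to 1 as each mouse was left out, and was kept in 7 of 20 such fits, with an adjusted p of Ndufc1 from 0.0331 to 0.0748. It was lost without LF d0 replicate 2, 3, 6, 7, 9 or 10 and without LF d56 replicate 2, 3, 4, 5, 7, 8 or 10. In HF d56 against LF d0 the count of 1 became 0 within the low (Ndufc1 -0.18, adjusted p = 0.0773) or the high set (-0.15, adjusted p = 0.722), with the tendon, the cartilage and bone or the adipocyte covariate, and without the arrays high in S100a8, and was kept in 20 of 20 fits without 1 mouse (adjusted p 0.00474 to 0.0240). Fits within a set or without arrays hold fewer mice, and otherwise the cause was not tested. The replicate block changed no other call of a complex I gene. The count of companion genes past the threshold was 0 in the main fit and in all fits without 1 mouse. It stayed 0 in 19 of 20 other alternatives in each comparison with LF d0. In the remaining alternative it reached 4 in LF d56 against LF d0 and 1 in HF d56 against LF d0. The looser motifs gave 9 in place of 3 for NRF1 and 2 in place of 0 for ERR alpha. The count between the spike-in sets stayed between 9 and 14. Signal near background limits Ndufa4l2.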

Other observations

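After the means of group and spike-in set were taken out, 412 of 528 pairs of the 33 subunits above 20 had a positive correlation over the 30 arrays, with a median r of 0.28. Pairs of assembly factors had a median of 0.25 (23 of 28 positive), and pairs of a subunit and an assembly factor a median of 0.13 (178 of 264 positive). The highest was 0.82 between Ndufs8 and Ndufv2, both core subunits. These values are a description: all genes of a mouse share its array and its normalization.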
